A study of Mus musculus with 22 samples.

Results

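Heat shock proteins and their J-domain cochaperones were followed in the hypothalamus of mice that had received celastrol, a plant triterpenoid, or the solvent dimethyl sulfoxide (DMSO) alone. The members were the probe sets with a single gene symbol that begins with Hspa, Hspb, Hspd, Hspe, Hsph or Hsp90, or with Dnaja, Dnajb or Dnajc, each followed by a number, plus Cryab, Hsf1 and Hsf2. The chaperones of the endoplasmic reticulum Hspa5, Hsp90b1, Dnajb9, Dnajb11 and Dnajc3 were left out. The rule used names only, and found 88 of 23492 probe sets, which stand for 66 of 18704 genes. Hsf1, Hsp90ab1 and Hspa1b were not analysed here as genes of their own. The 66 members were 9 of the HSP70 class, 3 of HSP110, 1 of HSP90 and 8 placed with the small heat shock proteins. Those 8 were Cryab and the genes with an Hspb symbol, among them Hspb11, whatever their function. The others were 2 of the mitochondrial chaperonin, 1 heat shock factor, and 4, 11 and 27 J-domain proteins of classes A, B and C.

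The study measured hypothalamic RNA of lean male C57BL/6J mice on 22 Affymetrix arrays. The labels give an age of 8 weeks and normal chow for 2 weeks for every group. DMSO was injected intraperitoneally at 25 µl per day for 6 h, 1 day or 4 days, with 4 arrays at each time. Celastrol, dissolved in DMSO, was given for the same times, with 4, 3 and 3 arrays in that order. Its label reads 250 µg per kg for the 6 h group but names only a volume of 100 µl for the later groups, whose dose per weight is therefore unknown here. The arrays are called biological replicates without a statement on animals, and p-values therefore measure only the spread between these samples.

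Chaperones bind unfolded stretches of proteins. J-domain proteins deliver clients to HSP70 and start its cycle of ATP hydrolysis, HSP110 releases the nucleotide, and HSP90 matures kinases and receptors that HSP70 hands on. In stressed cells the heat shock factor HSF1 is freed from chaperones, binds heat shock elements in promoters and raises the inducible members. Celastrol is known to activate this response in cultured cells, and the constitutive HSP70 form Hspa8 is abundant in neurons even without stress.

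A heat shock element is an array of inverted GAA units. RefSeq promoters (build GRCm38.p6, 250 bases before to 50 after a gene's start) were given for 52 of the 66 members, in 69 windows. They were searched on both strands for 3 units, GAANNTTCNNGAA or TTCNNGAANNTTC, and for 2 units, GAANNTTC or TTCNNGAA, counting a 2-unit match also where it lies inside a 3-unit match. The 3-unit motif was found for 4 members, Hspd1, Hspe1, Hsph1 and Dnajb6, in 6 of the 69 member windows, and in 0.603% of all 32851 windows. The 2-unit motif was found for 15 members, in 17 of the 69 member windows, and in 15.1% of all windows. Upstream stretches of 5 members that were also measured above the array median are shown, since HSF1 is known to act through such units. Each is read along the gene's own strand, with the matched units in capitals.

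Hspe1: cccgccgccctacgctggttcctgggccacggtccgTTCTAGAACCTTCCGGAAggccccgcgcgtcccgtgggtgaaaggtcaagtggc
Hsph1: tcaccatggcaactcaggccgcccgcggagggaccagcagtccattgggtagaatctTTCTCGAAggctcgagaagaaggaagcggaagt
Hspa1a: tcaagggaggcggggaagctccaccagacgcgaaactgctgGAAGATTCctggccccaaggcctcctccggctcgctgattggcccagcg
Hspb1: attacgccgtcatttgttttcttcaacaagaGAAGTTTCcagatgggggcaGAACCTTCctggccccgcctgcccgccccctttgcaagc
Dnajb4: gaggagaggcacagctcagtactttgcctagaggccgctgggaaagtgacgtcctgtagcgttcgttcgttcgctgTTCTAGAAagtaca

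The Hspe1 stretch lies at chr1:55088023-55088112 on the plus strand, at bases -125 to -36 from the gene's start. Its run of units spans chr1:55088059-55088076 and is also the run found in the window of Hspd1, which is read from the minus strand, so the 2 chaperonin genes share the site. The Hsph1 stretch lies at chr5:149636337-149636426 on the minus strand, and the 3-unit match of Hsph1 lies past the gene's start and is not shown. The Hspa1a stretch lies at chr17:34972212-34972301 on the minus strand, the Hspb1 stretch at chr5:135887771-135887860 on the plus strand and the Dnajb4 stretch at chr3:152193846-152193935 on the minus strand. A match is a description of the letters and not a measured binding site.

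Medians of the arrays lay between 8.58 and 8.66 on the deposited log2 scale, and 0 pairs of arrays were near-identical. DMSO 1 day replicate 1 and celastrol 1 day replicate 2 had the lowest mean correlations with their groups. Of 14 hypothalamic markers such as Hcrt, Pmch and Pomc, 12 lay above the array median in at least 3 arrays. The same held for 2 of 9 choroid plexus markers and 5 of 9 pituitary markers. The mean level of the pituitary markers ranged from 7.79 to 9.54 over the DMSO 6 h arrays. In a whole tissue, fewer cells of a type and less RNA per cell cannot be told apart.

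Celastrol left the heat shock family without a change that passed the test at 6 h, 1 day or 4 days. Of the 66 members, 50 lay above the array median in at least 3 arrays and were tested, and 0 of them passed limma's test (Benjamini-Hochberg adjusted p under 0.05, counted over 9880 genes) at any of the 3 times or on their average. Among all tested genes the same call was made for 0% at the first 2 times, for 0.0506% at 4 days (0.0304% higher, 0.0202% lower) and for 0.0607% on the average, all higher. The median log2 change over all 66 members was 0.02, -0.02 and 0.00 in order of time, and that over all 18704 genes was 0.00, 0.00 and 0.01. At 6 h 39 of 66 members were higher, at 1 day 24 and at 4 days 33. All tested genes leaned likewise at the first 2 times, by counts at an unadjusted p under 0.05 in limma. At 6 h 4.24% were higher and 0.87% lower, at 1 day 1.63% and 5.03%, and at 4 days 2.55% and 1.11%.

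The sizes were small in both directions. The 95% intervals of the 50 tested members lay between -0.27 and 0.30 at 6 h, between -0.38 and 0.29 at 1 day and between -0.37 and 0.28 at 4 days (limma, intervals not adjusted for the number of genes). The highest bound at 6 h, that of Hspa2, is a 1.23-fold increase. For 12 members known as HSF1-inducible the highest bound was that of Dnajb1 at all 3 times, a 1.18-fold increase at 6 h, 1.22-fold at 1 day and 1.18-fold at 4 days. A rise of several fold in the array intensity of the whole tissue lies outside these intervals, for the probe sets read.

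**Figure D1:**
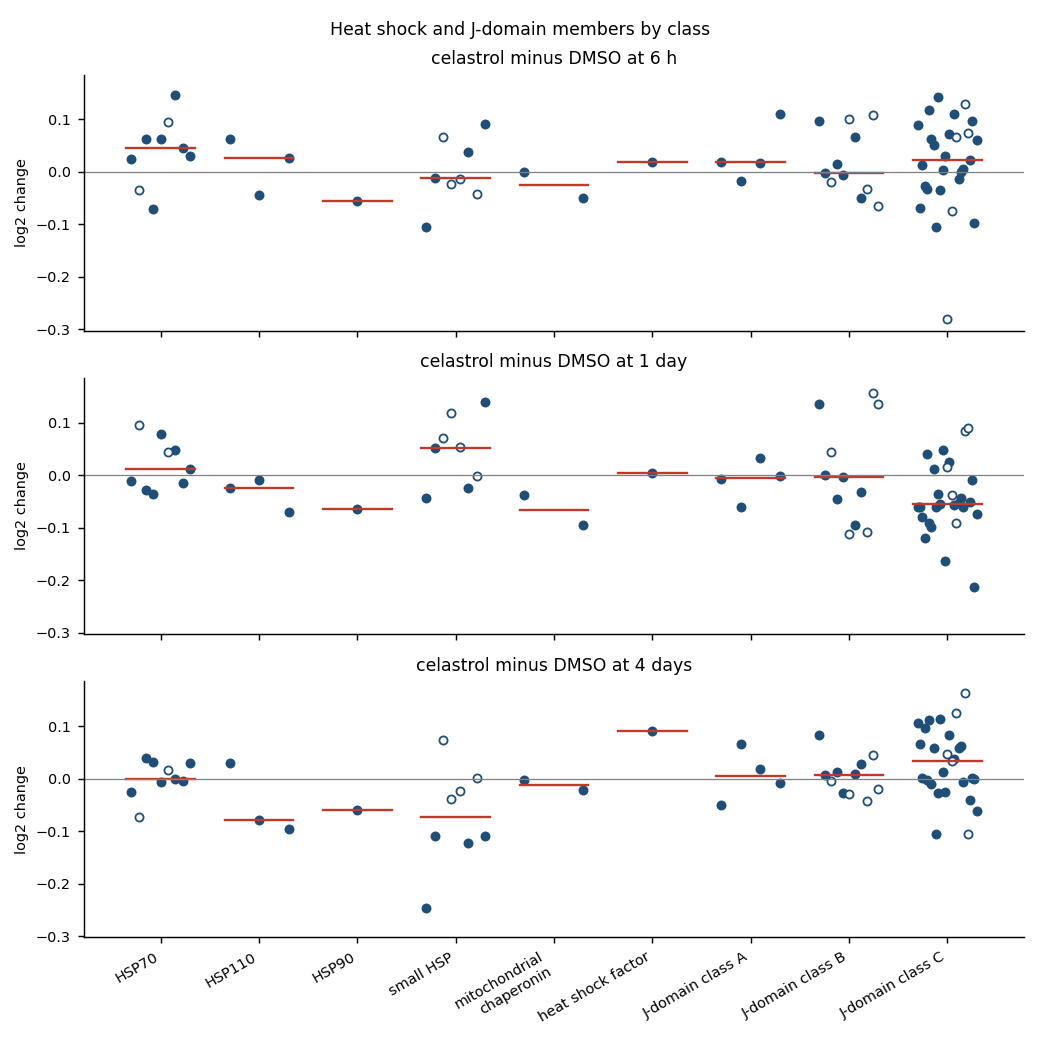
Log2 change (celastrol minus DMSO) of each of the 66 members, by class on the x axis, at 6 h (4 against 4 arrays), 1 day and 4 days (3 against 4). Filled points are the 50 tested members, open points the 16 dim ones, and red lines the class medians. The points lie on both sides of 0 in most classes, and the lowest tested value at 4 days, in the small heat shock proteins, is Cryab at -0.25.

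At an unadjusted p under 0.05, 5 members were higher and 0 lower at 6 h, which is 10% of those tested. Of all genes 5.11% passed, 4.24% higher and 0.87% lower. The 5 members were Dnajc18, Dnajc27, Dnaja4, Dnajc14 and Dnajc7. At 1 day the count was 3, all lower (Dnajc21, Dnajc8 and Dnajc12), or 6% against 6.66% of all genes, of which 1.63% were higher and 5.03% lower. At 4 days it was 3, with Cryab and Hspb6 lower and Dnajc19 higher, or 6% against 3.66% (2.55% higher, 1.11% lower). On the average of the times it was 3, with Dnajb1 higher and Cryab and Dnajc8 lower, or 6% against 4% (2.78% higher, 1.21% lower). Their adjusted p-values in limma were not under 0.248. Beside the 6 h values, 8 of 9 pituitary markers were lower with celastrol, with a median of -0.34 and a mean level per array of 7.76 to 8.18 against 7.79 to 9.54. Their part in the 6 h values was not tested.

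The HSP70 class carries the central ATP-driven cycle. Hspa1a, the stress-inducible form, read 9.35, 9.21, 9.48 and 9.30 in the celastrol 6 h arrays and 9.26, 9.32, 9.12 and 9.39 in the DMSO arrays. The groups overlapped, and the log2 change was 0.06 ± 0.07 (SE) with an adjusted p of 0.968 in limma. At 1 day Hspa1a read 9.33, 8.98 and 9.37 with celastrol and 9.12, 9.25, 9.01 and 9.22 with DMSO, a change of 0.08 ± 0.08. At 4 days it read 9.09, 9.05 and 9.12 against 9.11, 9.08, 9.12 and 9.04, a change of -0.01 ± 0.08. The groups overlapped at these times as well. A further probe set is shared by Hspa1a and Hspa1b and stands outside the rule. Its changes were -0.01, 0.08 and -0.08 at the 3 times.

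Hspa8, the constitutive HSP70 that also strips clathrin from vesicles, varied least. Its residual SD was 0.0248 on the log2 scale, lower than in all but 0.0709% of tested genes. At 6 h it read 14.00, 14.02, 13.99 and 14.01 with celastrol and 13.99, 13.96, 13.97 and 13.92 with DMSO. The groups did not overlap, by less than the second decimal, and the change of 0.05 ± 0.03 did not pass (adjusted p = 0.895, limma). Hspa13, an HSP70 of the microsomes, was likewise higher in 4 of 4 celastrol arrays at 6 h, with 10.45, 10.41, 10.44 and 10.42 against 10.31, 10.33, 10.41 and 10.41, a change of 0.06 ± 0.04. These 2 were the members whose groups did not overlap at 6 h, 4% of those tested against 2.76% of all genes (2.26% higher). Hspa9, the HSP70 of the mitochondrial matrix, gave 0.03, 0.01 and 0.03 at the 3 times.

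The HSP110 class recharges HSP70. Hsph1, its inducible member, read 11.67, 11.49, 11.55 and 11.56 with celastrol at 6 h and 11.53, 11.60, 11.48 and 11.56 with DMSO, a change of 0.03 ± 0.05. At 1 day the celastrol arrays read 11.40, 11.31 and 11.43 and the DMSO arrays 11.54, 11.44, 11.35 and 11.46. At 4 days they read 11.44, 11.36 and 11.37 against 11.49, 11.51, 11.42 and 11.52. Hsph1 thus lay below the DMSO mean in 3 of 3 celastrol arrays at both later times, with changes of -0.07 ± 0.05 and -0.09 ± 0.05, and the groups overlapped (adjusted p = 0.785 and 1, limma). Hspa4 gave 0.06, -0.02 and 0.03, and Hspa4l -0.04, -0.01 and -0.08.

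Hsp90aa1, the inducible cytosolic HSP90, read 13.27, 13.29, 13.16 and 13.19 with celastrol at 6 h and 13.19, 13.45, 13.19 and 13.30 with DMSO. At 1 day it read 13.13, 13.08 and 13.15 against 13.17, 13.24, 13.12 and 13.21. At 4 days it read 13.20, 13.12 and 13.12 against 13.17, 13.22, 13.16 and 13.27. The values lay below the DMSO mean of their time in 9 of 10 celastrol arrays, and the average change was -0.06 (95% interval -0.12 to 0.00, adjusted p = 1 in limma). Without DMSO 6 h replicate 2, which read 13.45, the 6 h change was -0.0022 and the average -0.04. All 3 probe sets of Hsp90aa1 gave a lower value at each time, on the same arrays.

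**Figure D2:**
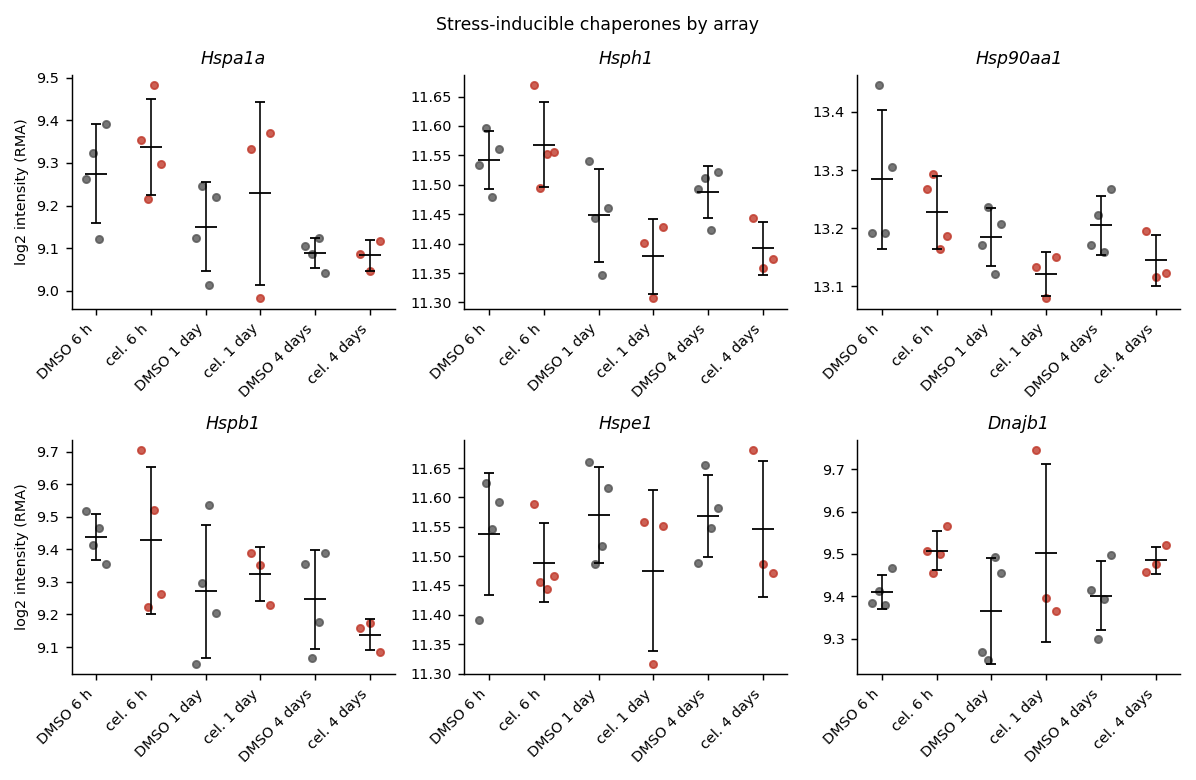
Deposited log2 intensity of 6 inducible chaperones by array (y axes differ in range), for DMSO (grey) and celastrol (red) at 6 h, 1 day and 4 days. Bars are the mean ± SD of 3 or 4 arrays. The celastrol and DMSO points overlap at 6 h in Hspa1a, Hsph1, Hsp90aa1, Hspb1 and Hspe1, while Dnajb1 reads 9.45 to 9.57 with celastrol and 9.38 to 9.47 with DMSO.

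Small heat shock proteins hold unfolding clients without ATP. Hspb1 had the largest residual SD of the tested members, 0.155. It read 9.70, 9.22, 9.52 and 9.26 with celastrol at 6 h and 9.52, 9.41, 9.46 and 9.36 with DMSO, a change of -0.01 ± 0.10. Its changes at 1 and 4 days were 0.05 ± 0.10 and -0.11 ± 0.10. Hspb8, which works with BAG3 in selective autophagy, gave 0.09, 0.14 and -0.11, and its 3 celastrol arrays at 4 days, 9.09, 9.03 and 9.05, overlapped the DMSO range of 9.05 to 9.24. The 1 day value rested on celastrol replicate 1, and without it the change was 0.07. Hspb6, a small heat shock protein of muscle and vessels, gave 0.04, -0.02 and -0.12, the last -0.06 without celastrol replicate 1.

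Cryab, the alpha-B crystallin of lens, glia and muscle, had the smallest p of all members among the comparisons of celastrol with DMSO. At 4 days it read 11.90, 11.85 and 11.83 with celastrol and 12.19, 12.13, 12.04 and 12.06 with DMSO. The groups did not overlap. The change was -0.25 ± 0.06, or 0.843-fold (95% interval -0.37 to -0.12 on the log2 scale, adjusted p = 0.248 in limma, exact permutation p = 0.0286, two-sided). That is the smallest p which 3 against 4 arrays, or 4 against 4, can give. At 6 h Cryab read 12.13, 11.87, 12.12 and 12.06 against 12.18, 12.22, 12.08 and 12.11, and at 1 day 12.15, 12.06 and 12.03 against 12.25, 12.13, 12.10 and 12.01. These groups overlapped, with changes of -0.10 ± 0.06 and -0.04 ± 0.06. On the average of the times the change was -0.13 ± 0.03, lower in 9 of 10 celastrol arrays (adjusted p = 0.424, limma).

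Cryab is also a gene of oligodendrocytes, and their markers, Mbp, Mog and 7 others, were lower at 4 days for 8 of 9, with a median change of -0.04. Their mean level per array lay between 11.27 and 11.36 with celastrol and between 11.33 and 11.40 with DMSO. Of 9 microglia markers 8 were higher at 4 days, with a median of 0.19 and a mean level per array of 9.24 to 9.27 with celastrol against 9.01 to 9.13 with DMSO. The part of either cell type in the Cryab value was not tested. At 4 days the groups did not overlap for 4 members, Cryab lower and Dnaja2, Dnajc14 and Dnajc19 higher, which is 8% of those tested against 6.33% of all genes (4.27% higher, 2.05% lower).

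**Figure D3:**
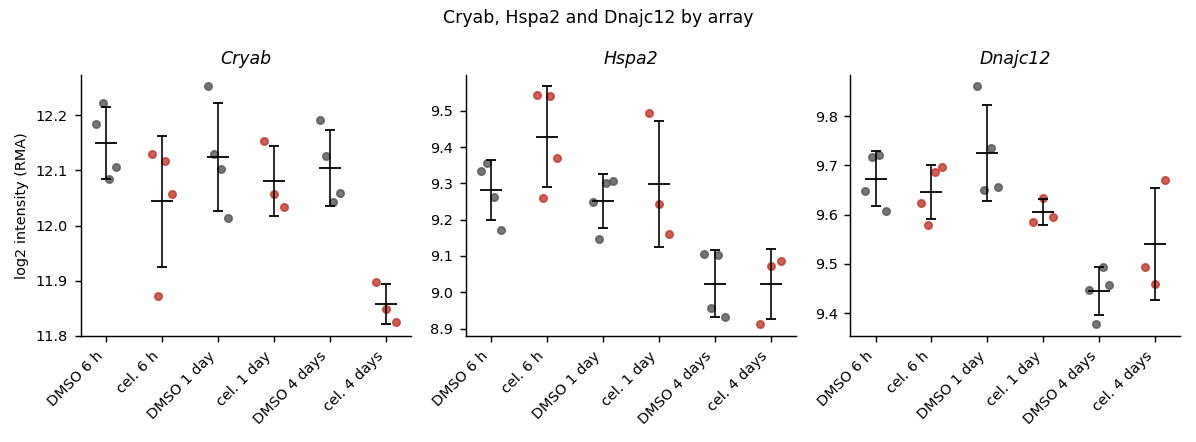
Deposited log2 intensity of Cryab, Hspa2 and Dnajc12 by array (y axes differ in range), DMSO in grey and celastrol in red, with the mean ± SD of 3 or 4 arrays. The 3 celastrol arrays of Cryab at 4 days (11.83 to 11.90) lie below the 4 DMSO arrays (12.04 to 12.19), Hspa2 is lowest at 4 days in both treatments, and Dnajc12 is lowest in the DMSO 4 days arrays.

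The mitochondrial chaperonin is built from Hspd1 and its lid Hspe1. Hspd1 gave -0.00, -0.04 and -0.00 at the 3 times and Hspe1 by -0.05, -0.09 and -0.02, with intervals that held 0. Of the 2 Hspd1 probe sets the dimmer one gave -0.12 at 4 days (unadjusted p = 0.0401, limma) and the brighter -0.00. Hsf2, a relative of HSF1 that shares its sites, gave 0.02, 0.00 and 0.09.

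Class A and B J-domain proteins are the general HSP70 partners. Dnajb1, the main inducible one, lay above the DMSO mean of its time in 10 of 10 celastrol arrays. At 6 h it read 9.51, 9.45, 9.50 and 9.57 with celastrol and 9.38, 9.41, 9.38 and 9.47 with DMSO. At 1 day it read 9.74, 9.40 and 9.37 against 9.27, 9.25, 9.49 and 9.45, and at 4 days 9.46, 9.48 and 9.52 against 9.42, 9.30, 9.39 and 9.50. The groups overlapped at each time, and the values at 1 day were the most spread. The average change of 0.11 ± 0.04, or 1.08-fold, had an unadjusted p of 0.0172 and an adjusted p of 1 in limma. The 1 day value of 0.14 rested on celastrol replicate 1, and without it the change was 0.02 and the average 0.07. The 4 day value was 0.05 without DMSO replicate 2.

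Dnaja4, a cytosolic partner induced by heat, read 9.42, 9.42, 9.56 and 9.40 with celastrol at 6 h and 9.41, 9.36, 9.28 and 9.31 with DMSO, a change of 0.11 ± 0.05 (adjusted p = 0.895, limma). At the later times its changes were -0.00 and -0.01. Dnaja1, the farnesylated partner of HSP70, gave 0.02, -0.01 and -0.05. Its 2 probe sets differed in sign on the average of the times, with -0.01 and 0.00. Dnajb4 gave 0.07, -0.09 and 0.01. Dnajb5 was among the steadiest members, with a residual SD of 0.0396 and changes of -0.05, -0.03 and 0.03.

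Class C holds J-domain proteins of narrower tasks. At 6 h Dnajc18 gave the largest change of the class among those tested, 0.14 ± 0.06, with 10.99, 10.93, 10.93 and 10.87 with celastrol and 10.81, 10.70, 10.90 and 10.75 with DMSO. Dnajc27, a small GTPase with a J domain, read 10.41, 10.44, 10.37 and 10.47 against 10.28, 10.40, 10.34 and 10.23, a change of 0.11 ± 0.05. Dnajc7, a bridge between HSP70 and HSP90, gave 0.10 ± 0.04. All 3 lay above the DMSO mean in 4 of 4 celastrol arrays at 6 h, and their groups overlapped. The adjusted p of each in limma was 0.895. At 1 day their changes were -0.04, -0.06 and -0.01. Dnajc10, a reductase of the endoplasmic reticulum, gave -0.07, -0.06 and 0.07.

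At 1 day 20 of 27 class C members were lower, with a median of -0.05. Of all 18704 genes 9247 were lower, with a median of 0.00, and of the 9880 tested 5812, with a median of -0.01. Dnajc21, a factor of ribosome maturation, read 9.04, 8.89 and 8.91 with celastrol and 9.15, 9.12, 9.10 and 9.08 with DMSO. The groups did not overlap, and the change was -0.16 ± 0.05 (adjusted p = 0.692, limma). Dnajc8, a protein of the spliceosome, read 9.001, 8.76 and 9.12 against 9.29, 9.06, 9.13 and 9.21, a change of -0.21 ± 0.08 (adjusted p = 0.698, limma). It was -0.11 without celastrol replicate 2. The groups did not overlap for 3 members at 1 day, Dnajc12, Dnajc21 and Dnajc5, 6% of those tested and all lower, against 6.17% of all genes (1.81% higher, 4.36% lower). Dnajc5, the cysteine string protein of synaptic vesicles, gave -0.06 ± 0.04 with a residual SD of 0.037, among the 3 smallest. At 4 days Dnajc19, a subunit of the mitochondrial import motor, read 10.10, 10.03 and 10.07 against 9.91, 10.001, 9.93 and 9.98, a change of 0.11 ± 0.05. Dnajc13, a protein of endosomes, is read by 15 probe sets, and on the average 10 were higher and 5 lower. Dnajc17 and Dnajc1 had the largest residual SDs after Hspb1, 0.128 and 0.124, and changes between -0.11 and 0.11. Dnajc16 had an average change of 0.04 ± 0.03.

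The 16 dim members include Dnajc22, Hspa1l, Hspb2, Hspb3 and Hspb7. The largest difference among them was that of Dnajc22 at 6 h, with a mean of 6.87 with celastrol and 7.15 with DMSO. Both lie below the array medians, and the gene was not tested. Without the filter on level 0 of the 66 members passed for celastrol against DMSO at any time.

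Members whose promoter windows held a match to the motifs, and those without a match, were set beside the changes. The 12 tested members with a 2-unit match had median changes of 0.03, -0.03 and -0.02 at the 3 times. The 27 tested members with a promoter and no match had 0.02, -0.03 and 0.01. Of the members known as HSF1-inducible, Dnajb1 and Hspa4l stand among these 27. Hspa8, Hsp90aa1 and Cryab had no promoter window and stand in neither group, so the groups do not part inducible members from others. For the tested members with a 3-unit match, Hspd1, Hspe1 and Hsph1, the changes ranged from -0.05 to 0.03 at 6 h, from -0.09 to -0.04 at 1 day and from -0.09 to -0.00 at 4 days. The medians of both groups lay within 0.05 of 0 at each time.

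Other genes of the pathway stayed without a call as well. Of 14 other HSF1 targets 12 were tested, of 35 cofactors of HSP70 and HSP90 33, of 15 genes of the cytosolic chaperonin and prefoldin 13, and of the 5 chaperones of the endoplasmic reticulum all 5. The call was made for 0 of them at 6 h, 1 day or 4 days in limma. At an unadjusted p under 0.05 the HSF1 targets had 2 of 12 higher at 6 h, where 4.24% of all genes were, and 0 later. The 2 were Ahsa2, at 0.23 ± 0.07, and Chordc1, at 0.20 ± 0.09, both cochaperones of HSP90, each with an adjusted p of 0.895. The cofactors had 3 of 33 higher at 6 h, Ahsa2 and Sgtb (0.11 ± 0.04) with the smallest p, and Chordc1, against 4.24% of all genes. Ahsa2 and Chordc1 stand in both lists and are counted in each. At 1 day 1 cofactor was lower, Bag5 at -0.14, where 5.03% of all genes were. At 4 days 1 was higher, Trap1 at 0.10, where 2.55% of all genes were. The cytosolic chaperonin and prefoldin list was lower at 1 day for 14 of 15, where 9247 of 18704 genes were, with a median of -0.09. Among the tested genes, given above with class C, the share lower was larger than among all genes. Of the 13 tested genes of the chaperonin and prefoldin list 5 were lower at an unadjusted p under 0.05, where 5.03% of all genes were. Cct8, a chaperonin subunit, gave -0.10 and Pdcl3, a phosducin-like cofactor, -0.16.

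The effect of celastrol was also compared between times, where 0 of 50 members and 0% of all genes passed in any of the 3 differences in limma. At an unadjusted p under 0.05, 4 members differed between 6 h and 1 day, 2 between 6 h and 4 days and 5 between 1 day and 4 days. These are 8%, 4% and 10% of the members, against 8.27% (1.26% higher, 7.01% lower), 3.38% (1.14% higher, 2.24% lower) and 6% (5.01% higher, 0.992% lower) of all genes. The 4 of the first difference, Dnajc14, Dnajc18, Dnajc21 and Dnajc27, were all lower at 1 day.

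Times were also compared within the DMSO arrays. Dnajc12, a J-domain protein that helps fold the hydroxylases of phenylalanine, tyrosine and tryptophan, fell between 1 day and 4 days of DMSO. It read 9.86, 9.65, 9.74 and 9.66 at 1 day and 9.45, 9.38, 9.49 and 9.46 at 4 days. The groups did not overlap, and the change was -0.28 ± 0.05, or 0.823-fold (adjusted p = 0.0275, limma). No overlap was seen there for 4 members, 8% of those tested and all lower, against 9.8% of all genes (5.07% lower). Dnajc12 was the single member called there, 2% of those tested against 0.152% of all genes. At 6 h it read 9.65, 9.72, 9.72 and 9.61, and from 6 h to 4 days the change was -0.23 ± 0.05, just outside the threshold (adjusted p = 0.0512, limma; called for 0.253% of all genes). From 6 h to 1 day of DMSO 0 members and 0% of all genes passed in limma, with 7 members (14%) at an unadjusted p under 0.05 against 14.1% of all genes. The smallest p-values there were those of Hspa13 (0.14), Dnajc14 (0.17) and Dnajc7 (0.11) among the higher and Hspa4l (-0.12), Hsph1 (-0.09) and Hsp90aa1 (-0.10) among the lower, with adjusted p-values of 0.153 and above in limma.

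The call rested on single arrays. It was lost on leaving out DMSO 1 day replicate 1 or 3 or any of the 4 DMSO 4 days arrays, with adjusted p-values between 0.0647 and 0.108 and changes between -0.30 and -0.24. It was also lost with no filter on level (adjusted p = 0.126, limma) and in a model of the compared groups alone (adjusted p = 0.11). With the 2 least typical arrays left out the change was -0.24 (adjusted p = 0.112). Beside it, 11 of 14 hypothalamic markers were lower at 4 days than at 1 day of DMSO, with a median of -0.09 and a mean level per array of 10.27 to 10.39 against 10.36 to 10.48. Of 9 pituitary markers 8 were lower, with a mean level of 7.65 to 8.16 against 7.73 to 8.64. Their part in the Dnajc12 value was not tested. With celastrol, Dnajc12 read 9.62, 9.58, 9.69 and 9.70 at 6 h, 9.59, 9.63 and 9.59 at 1 day and 9.49, 9.46 and 9.67 at 4 days. Celastrol minus DMSO was thus -0.12 ± 0.05 at 1 day, lower in 3 of 3 arrays, and 0.10 ± 0.05 at 4 days, higher in 3 of 3 (adjusted p = 0.72 and 1, limma). Without DMSO 1 day replicate 1 the former was -0.08, and without celastrol 4 days replicate 3, which read 9.67, the latter was 0.03. The difference between these effects, 0.22 ± 0.08, did not pass (adjusted p = 0.76, limma).

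Hspa2, an HSP70 known best from germ cells and also present in brain, had its lowest values at 4 days in both treatments. The DMSO arrays read 9.33, 9.36, 9.26 and 9.17 at 6 h, 9.25, 9.15, 9.30 and 9.31 at 1 day and 9.11, 8.96, 9.10 and 8.93 at 4 days. The celastrol arrays read 9.54, 9.26, 9.54 and 9.37, then 9.49, 9.24 and 9.16, then 8.91, 9.07 and 9.09. At 4 days the arrays of either treatment lay below all arrays of that treatment at 6 h and at 1 day. Of all tested genes 2.05% lay wholly lower at 4 days than at 6 h of DMSO, and 5.07% than at 1 day. With celastrol these shares were 6.51% and 4.09%. Within DMSO the changes from 6 h and from 1 day to 4 days were -0.26 ± 0.07 and -0.23 ± 0.07, neither past the threshold (adjusted p = 0.132 and 0.168, limma).

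Differences between times within the celastrol arrays were added after the data were seen. From 6 h to 4 days Hspa2 fell by 0.41 ± 0.08 on the log2 scale, to 0.755-fold (adjusted p = 0.0129, limma). Hspa2 was the single member called, 2% of those tested against 1.53% of all genes. The call was lost without celastrol 4 days replicate 1 or 2, with adjusted p-values of 0.0731 and 0.0518. Beside it, the mean level of the microglia markers per array was 9.06 to 9.15 at 6 h and 9.24 to 9.27 at 4 days of celastrol (8 of 9 higher). That of the endothelial and mural markers was 9.40 to 9.46 and 9.498 to 9.52 (8 of 10 higher), and that of the astrocyte markers 11.10 to 11.25 and 11.02 to 11.07 (8 of 10 lower). Their part in the Hspa2 value was not tested. Celastrol minus DMSO for Hspa2 was 0.15 ± 0.07 at 6 h, 0.05 ± 0.08 at 1 day and -0.00 ± 0.08 at 4 days, and neither the first (adjusted p = 0.895, limma) nor the later ones passed. Hsph1 gave -0.18 ± 0.05 from 6 h to 4 days of celastrol, with no overlap and an adjusted p of 0.0683 in limma. The groups did not overlap there for 22% of the tested members (14% lower), against 18.6% of all genes (6.51% lower). At an unadjusted p under 0.05, 9 members were lower and 4 higher from 6 h to 4 days of celastrol. That is 18% and 8% of the members, against 6.59% and 11.4% of all genes, and 26% against 18% in both directions. From 6 h to 1 day and from 1 day to 4 days of celastrol 0 members passed in limma, where 0.0202% and 0% of all genes did, and 4 and 9 members had an unadjusted p under 0.05 (8% and 18%, against 7.37% and 10.9%). The smallest p-values from 6 h to 1 day were those of Hsph1 (-0.19), Dnajc21 (-0.16) and Dnajc15 (-0.16), a protein of the mitochondrial inner membrane, among the lower, and Dnaja3 (0.07), Hsf2 (0.08) and Hspa13 (0.05) among the higher, with adjusted p-values of 0.342 and above in limma. From 1 day to 4 days they were those of Dnajc8 (0.29), Dnajc10 (0.18) and Dnajc21 (0.15) among the higher and Cryab (-0.22), Hspb8 (-0.25) and Hspa2 (-0.28) among the lower, with adjusted p-values of 0.254 and above. In DMSO, from 6 h to 4 days, 3 members were lower and 4 higher, or 6% and 8%, against 3.77% and 11.5% of all genes (15.3% in both directions). Dnajc12, Hspa2 and Hspa1a (-0.19) were the lower ones, and Hspb6 (0.15), Hspa13 (0.11) and Dnaja3 (0.14), a mitochondrial partner of HSP70, led the higher ones.

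Within groups the arrays differed in chaperone level, and the members were read for shared deviations. Values minus their group means were set against those of Hsph1 over the 22 arrays for 9 other chaperones, with permutations of 100000 draws within groups and Benjamini-Hochberg adjustment over the 9 pairs. Hspe1 followed Hsph1 with a Pearson r of 0.70 and a Spearman rho of 0.75 (permutation p = 0.00193 and 0.00127, adjusted p = 0.0174 and 0.0114). Without the 2 arrays farthest from the median of Hsph1 r was 0.69. As background, 0.111% of all tested genes had an r with Hsph1 at least as high. The call was lost without celastrol 6 h replicate 1 (r = 0.66), without celastrol 1 day replicate 2 (r = 0.64) and without the 2 least typical arrays (r = 0.59, adjusted permutation p = 0.0797).

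Cryab, Hspa1a and Hsp90aa1 gave r of 0.58, 0.53 and 0.52, with rho of 0.52, 0.40 and 0.58. Their permutation p-values were 0.0297, 0.0404 and 0.0174, and the adjusted values 0.0891, 0.0909 and 0.0783 did not pass. Without the 2 farthest arrays r was 0.57, 0.51 and 0.48. Hspa8, Dnajb1, Dnaja1, Hspd1 and Hspb1 had r between -0.08 and 0.24. Hspd1, which shares the matched run of units with Hspe1, gave an r of 0.05 with Hsph1 by the brighter of its 2 probe sets. The dimmer probe set was not set against Hsph1 on its own. The arrays share tissue, dissection and normalization, and no label names a batch.

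**Figure D4:**
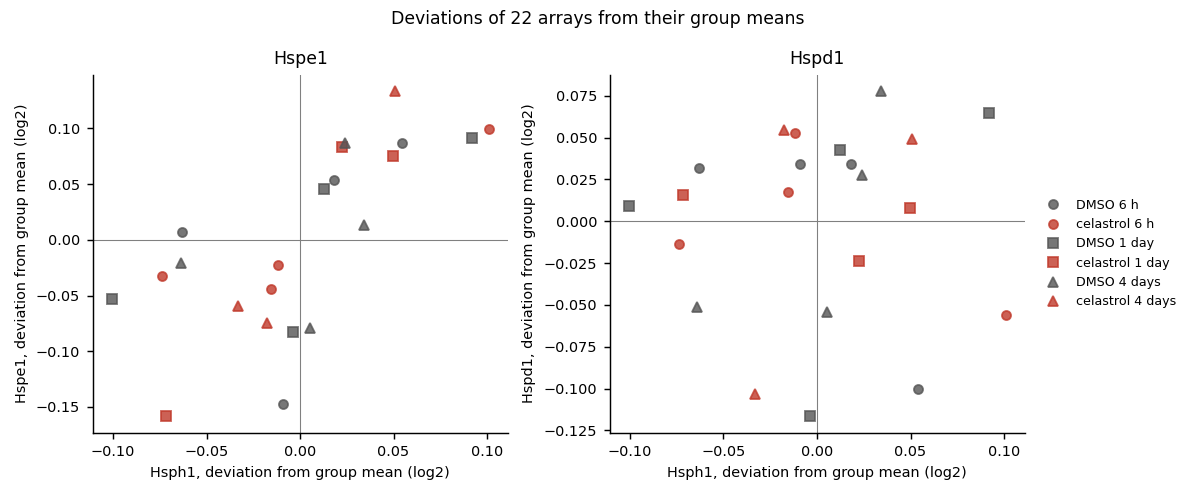
Deviation of Hspe1 (left) and Hspd1 (right) from the group mean against that of Hsph1, in log2 units, for 22 arrays. Grey is DMSO, red is celastrol, and the shapes give the time. Each gene is read by its brightest probe set. Hspe1 rises along Hsph1 (r = 0.70), and Hspd1 scatters without order (r = 0.05).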

How the data were processed

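RMA had turned the probe intensities into the log2 values that the authors deposited, per the submitters' processing notes, and the sources used here name no RMA version or probe set annotation. The table held 23492 probe sets on 22 arrays, its values spanned 3.83 to 15.17, and 0 columns belonged to other series. Symbols came from the platform annotation: 20228 probe sets had 1, 1399 several and 1865 none. For 809 genes with several probe sets, 7 members among them, the brightest was kept. Whether a kept probe set lies at the gene's own locus was not checked. A gene was tested where 3 or more arrays of either treatment read it above the array median; 0 tested members lacked a DMSO array above it. All 66 members matched RefSeq by gene ID, 0 under another symbol.

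A model of 6 group means was fitted with limma 3.58.1 in R 4.3.3 (lmFit, eBayes; two-sided), and p-values were adjusted by Benjamini-Hochberg over 9880 genes, with a threshold of 0.05. Exact permutation tests were two-sided, and the smallest p they allow is 0.0286. Array number limits the precision. In each comparison with DMSO or between times within a treatment the text names called members, otherwise the smallest p-values, 3 in each direction; for differences between celastrol effects it names members that lay on opposite sides of the DMSO mean or changed sign with the processing. It also names a fixed set of inducible chaperones, and the 3 largest and 3 smallest residual SDs. From each list of other pathway genes the 2 smallest p-values are named. Hspa4, Hspa9, Dnaja2, Dnajb4 and Dnajc22 were chosen after their values were seen. Members and lists were chosen with earlier results of these data known. Steps were tested on simulated data. Alternatives covered the filter, scaling, model, arrays and probe sets. Figures used matplotlib 3.10.9 in Python 3.11.15.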

Additional observations from a re-analysis of the deposited data

Results flagged for a closer look

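Among 140 groups of 4 arrays checked for 35 named members, 7 held an array that stood far from the other 3, where chance gives about 1 in 20. At celastrol 6 h these were Dnaja4 in replicate 3 (9.56, next 9.42), Hspe1 in replicate 1 (11.59, next 11.47) and Dnajc10, a reductase of the endoplasmic reticulum, in replicate 1 (9.75, next 9.85). At DMSO 6 h they were Hspd1 in replicate 2 (11.09, next 11.22), Hsf2 in replicate 3 (9.53, next 9.29) and Dnajc2, a ribosome-associated J-domain protein, in replicate 2 (8.61, next 8.49). At DMSO 1 day it was Dnajc17 in replicate 1 (9.50, next 9.12), in an array that also had a low correlation with its group.

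In 6 of the 50 tested members every celastrol array lay on one side of the DMSO mean at a time and every array on the other side at another. The share of all genes with such a reversal was not counted, so the 6 are not read as a trait of the members. Between 1 day and 4 days the celastrol effect differed by 0.22 in Dnajc12 (-0.12 and 0.10), by 0.20 in Dnajc14 (-0.09 and 0.11), by 0.10 in Dnajc27 (-0.06 and 0.04) and by -0.25 in Hspb8 (0.14 and -0.11). Between 6 h and 1 day it differed by -0.21 in Dnajc14 (0.12 and -0.09), by -0.17 in Dnajc27 (0.11 and -0.06), by -0.11 in Dnajc7 (0.10 and -0.01) and by -0.07 in Dnajc6, the auxilin of neurons (0.02 and -0.05). The interaction tests in limma gave adjusted p-values of 0.76, 0.814, 0.851 and 0.8 for the former and 0.581, 0.581, 0.653 and 0.731 for the latter, so none passed. The Hspb8 effect at 1 day was 0.07 without celastrol replicate 1, and the Dnajc12 effect at 4 days 0.03 without celastrol replicate 3.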

How the results depend on the processing

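The counts of members called for celastrol against DMSO (each time, the average and the 3 differences) were 0 under all 34 alternatives. For DMSO between times the count was 1, and it was 0 with no filter or only the groups compared. It was 2 with a stricter filter (11 arrays), a filter on DMSO arrays, limma-trend, robust eBayes, array weights, median centring or repeated quantile normalization, the addition being Dnajc12 from 6 h to 4 days. Leaving out an array gave 0 to 2. For celastrol between times the count was 1, but 2 with median centring or limma-trend, 5 with array weights, 4 without the 2 least typical arrays, and 0 to 3 on leaving out an array. Correlations with Hsph1 past the threshold numbered 1, but 4 with median centring, 2 with the replicate block, 0 without the 2 least typical arrays, and 0 to 2 on leaving out an array. The members' median became 6.58e-05 for DMSO 1 day minus 6 h, -0.0294 for celastrol 4 days minus 6 h and -0.0244 for celastrol 4 days minus 1 day with median centring, and 0.0259 for DMSO 4 days minus 6 h with all probe sets. Of 3530 values over 104 results on named members, 3505 kept direction and side of the threshold, 11 lost a call, 11 gained one and 3 changed sign, a change counted where the value was called or at least its SE from 0. These were Hspe1 at 1 day without the 2 least typical arrays (0.0146) and the effect of Dnajc13, 1 day minus 6 h, with array weights (-0.0041) or without these 2 arrays (-0.0173). The cause was not tested. Without the 2 least typical arrays the Dnajc12 call of DMSO 4 days minus 1 day was lost, and that of 4 days minus 6 h was made. The 2 arrays are DMSO 1 day replicate 1 and celastrol 1 day replicate 2. The labels do not say whether replicate numbers pair samples. Same-numbered arrays of a time correlated between -0.24 and 0.41, with too few arrays to settle it. With the replicate block the counts for celastrol against DMSO stayed at 0, with a lowest adjusted p of 0.0969 at 4 days (limma).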
